A study of Mus musculus with 6 samples.

Results

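The circadian clock genes described here were 10 genes chosen by name, namely Clock, Per1, Per2, Per3, Cry1, Cry2, Nr1d1, Nr1d2, Dbp, and Tef, of the 26167 genes in the tables. All 10 were found and all 10 passed the filter on low counts (at least 10 counts in at least 3 tumors), as did 16513 genes in total. Their RNA was measured by RNA-seq in Hepa1-6 tumors, 3 from control mice (control tumors 1, 3, and 4 of the sample labels) and 3 from mice given Sora (Sora-treated tumors 2, 3, and 4). Hepa1-6 (Hep1-6 in the labels) is a mouse hepatoma cell line, here grown subcutaneously in female C57BL/6J mice bought at 6 to 8 weeks of age, and Sora (sorafenib) is an inhibitor of several kinases, injected ip at 10 mg/kg on days 9, 11, 13, and 15 after the cells. What the control mice were given is not stated in the sources used here. A whole tumor holds the host's stromal and immune cells beside the injected cells, so fewer cells of a type and less RNA per cell cannot be told apart. The sample labels and the study's methods used here do not give the time of day at which the tumors were taken, and where it differed between groups or tumors, time of day and treatment cannot be told apart.

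The circadian clock is a transcriptional feedback loop that most mammalian cells carry. CLOCK pairs with BMAL1 on E-box DNA and switches on the Per and Cry genes, whose proteins return to the nucleus and repress CLOCK and BMAL1. The same pair switches on Nr1d1 and Nr1d2, which encode the nuclear receptors REV-ERBα and REV-ERBβ, repressors of Bmal1, and Dbp, which encodes a PAR bZIP transcription factor that acts with its relatives TEF and HLF on D-box DNA. In the liver this loop gives many metabolic genes a daily rhythm, and the RNA of Dbp and Nr1d1 swings strongly over the day. A single collection of tissue shows the levels at 1 moment and cannot show a rhythm.

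Promoter sequences are shown for Nr1d1 and Dbp, the members whose levels did not overlap between the groups, for Ciart, the other clock gene with the highest fold between the groups, and for Per3, which held a pair of D-boxes. The 250 bases before the RefSeq start of the gene are printed 5′ to 3′ on the strand of the gene (GRCm38.p6), with the motifs found on either strand in capitals.
Nr1d1 (chr11:98775378-98775627, minus strand): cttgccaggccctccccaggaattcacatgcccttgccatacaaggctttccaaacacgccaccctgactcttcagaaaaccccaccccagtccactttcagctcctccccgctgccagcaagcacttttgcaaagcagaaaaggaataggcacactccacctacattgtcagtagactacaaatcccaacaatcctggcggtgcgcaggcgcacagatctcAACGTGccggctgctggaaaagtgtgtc
Dbp (chr7:45704997-45705246, plus strand): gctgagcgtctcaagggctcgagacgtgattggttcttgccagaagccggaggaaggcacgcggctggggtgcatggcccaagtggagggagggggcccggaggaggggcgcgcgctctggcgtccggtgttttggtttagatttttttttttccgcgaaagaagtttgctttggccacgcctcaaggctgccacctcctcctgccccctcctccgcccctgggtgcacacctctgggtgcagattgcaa
Ciart (chr3:95882229-95882478, minus strand): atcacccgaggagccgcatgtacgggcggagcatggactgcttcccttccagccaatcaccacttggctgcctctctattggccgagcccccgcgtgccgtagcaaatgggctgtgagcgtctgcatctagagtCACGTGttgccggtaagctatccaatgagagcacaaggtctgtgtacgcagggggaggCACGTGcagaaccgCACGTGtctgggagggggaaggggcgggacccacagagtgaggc
Per3 (chr4:151044666-151044915, minus strand): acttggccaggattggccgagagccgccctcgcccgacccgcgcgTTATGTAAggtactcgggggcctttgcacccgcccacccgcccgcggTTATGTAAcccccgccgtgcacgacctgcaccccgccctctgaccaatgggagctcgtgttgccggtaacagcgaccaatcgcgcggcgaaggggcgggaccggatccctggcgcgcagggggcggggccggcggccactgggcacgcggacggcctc
The capitals mark an E-prime box in Nr1d1 (AACGTG, the reverse complement of CACGTT, 28 bases before the start), 3 E-boxes in Ciart (CACGTG, 116, 58, and 44 bases before the start), and 2 D-boxes in Per3 (TTATGTAA, 205 and 158 bases before the start), whereas the Dbp window held none of the motifs searched.

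The motifs were searched on both strands in windows from 250 bases before to 50 bases after a start, and 9 of the 10 members had such a window, Per2 being the exception. Among all 32851 windows, 7.15% held an E-box (CACGTG), 4.68% an E-prime box (CACGTT), 1.06% a D-box (TTATGTAA or TTACGTAA), 1.79% a CRE (TGACGTCA), and 0.384% a RORE, the element that REV-ERB and ROR proteins bind. Per1, Cry1, and Tef held an E-box, and Cry1, Cry2, and Nr1d1 an E-prime box. Per3 was the 1 member with a D-box. Clock, Nr1d2, and Dbp held none of these letters in any of their windows, which says nothing of sites outside them. No member's window held a CRE or a RORE, and 1 of the 2 windows of Bmal1, the partner of Clock, held a RORE.

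Sora-treated tumors were compared with control tumors to ask whether the level of the clock genes differed under treatment. None of the 10 clock genes passed the test (edgeR, adjusted p under 0.05), where 3.29% of all genes tested did. At an unadjusted p under 0.05, 2 of the 10 passed, Nr1d1 and Dbp, beside 17.2% of all genes. The CPM (read counts scaled to a common library size, with TMM factors) of the groups did not overlap for the same 2 of the 10, beside 22.2% of all genes. Both shares lay near those of all genes. Of the 10 log2 fold changes, 6 were above 0 and 4 below, with a median of 0.07, beside 8244 above, 8269 below, and a median of -0.0004 over all genes. The labels do not say that the 3 samples of a group are separate mice, so a p-value measures only the spread between these samples. The counts of Sora-treated tumor 4 were recovered from its FPKM.

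**Figure D1:**
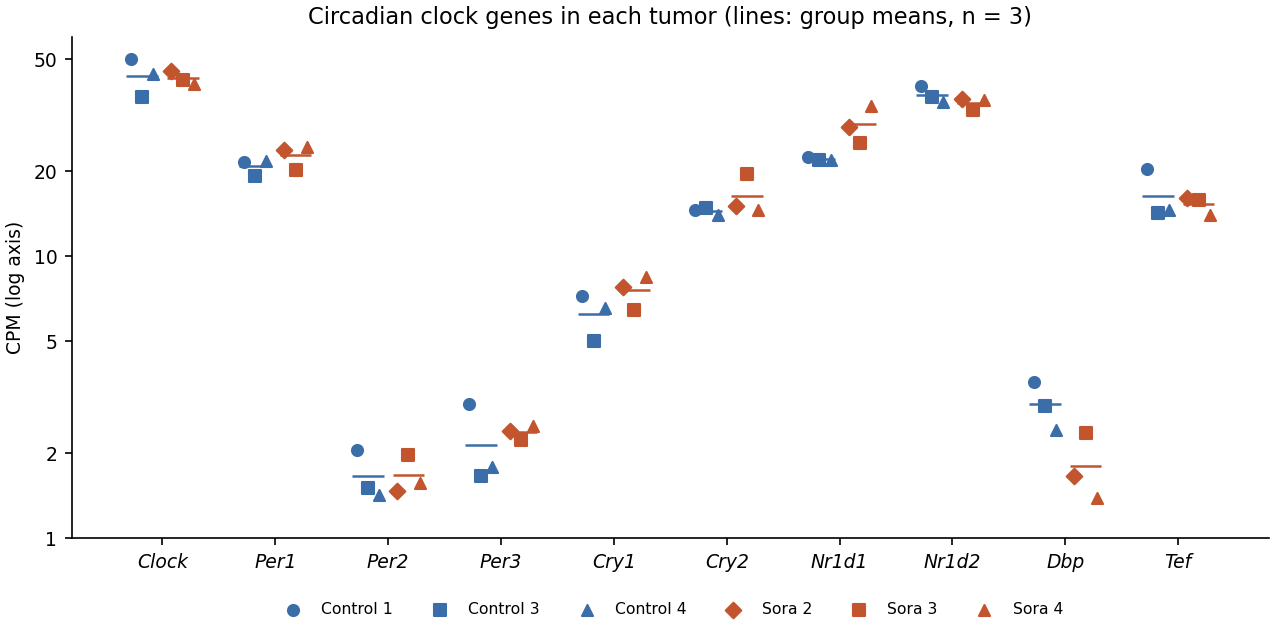
CPM (log axis) of the 10 clock genes, with 1 point per tumor (blue, control tumors; orange, Sora-treated tumors) and lines for the group means (n = 3). The 3 Sora-treated tumors lie above the 3 control tumors for Nr1d1 and below them for Dbp, and the groups overlap for the other 8 genes.

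The genes of the positive arm overlapped between the groups. Clock, the DNA-binding partner of BMAL1, had 50.2, 36.8, and 44.2 CPM in control tumors 1, 3, and 4 and 45.4, 42.0, and 40.9 CPM in Sora-treated tumors 2, 3, and 4. The control tumors held both the highest and the lowest value, and the log2 fold change was -0.03 ± 0.11 (SE; 95% interval -0.27 to 0.21; adjusted p = 0.92). Bmal1 itself, which is not among the 10, had 34.6, 37.5, and 36.7 CPM in control tumors and 37.4, 36.7, and 43.0 CPM in Sora-treated tumors (log2 fold change 0.11, and 0.03 without Sora-treated tumor 4; adjusted p = 0.599). Npas2, the paralog that can take the place of Clock, was at 2.27 ± 0.509 and 2.11 ± 0.565 CPM (mean ± SD, n = 3; log2 fold change -0.11; adjusted p = 0.898).

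The PER and CRY repressors overlapped between the groups in all 5 genes. Per1, which responds to light and hormones as well as to the clock, had 21.6, 19.2, and 21.7 CPM in control tumors and 23.8, 20.2, and 24.4 CPM in Sora-treated tumors. Per2, a core repressor, had 2.05, 1.504, and 1.42 CPM in control tumors and 1.47, 1.96, and 1.57 CPM in Sora-treated tumors. Per3, which the loop can run without, had 2.99, 1.66, and 1.78 CPM in control tumors and 2.40, 2.23, and 2.50 CPM in Sora-treated tumors. In Per2 and Per3 control tumor 1 was the highest of the 6, and the Sora-treated tumors lay within the range of the control tumors. The log2 fold changes were 0.13 ± 0.10 for Per1 (adjusted p = 0.589), 0.01 ± 0.30 for Per2 (adjusted p = 0.994), and 0.15 ± 0.29 for Per3 (adjusted p = 0.842). The intervals of Per2 (-0.65 to 0.66) and Per3 (-0.49 to 0.79) were wide, and counting alone gave a coefficient of variation of 13.5% for Per2 and 11.6% for Per3 in a tumor.

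Cry1, which encodes a strong repressor of CLOCK and BMAL1, had 7.22, 5.002, and 6.55 CPM in control tumors and 7.76, 6.46, and 8.45 CPM in Sora-treated tumors. Cry2, its paralog, had 14.6, 14.9, and 14.0 CPM in control tumors and 15.1, 19.5, and 14.5 CPM in Sora-treated tumors. Sora-treated tumor 3 stood above the other 5 tumors in Cry2, and the other two Sora-treated tumors did not. The log2 fold changes were 0.27 ± 0.18 for Cry1 (95% interval -0.13 to 0.68; adjusted p = 0.502) and 0.18 ± 0.13 for Cry2 (-0.10 to 0.46; adjusted p = 0.523). That of Cry1 was 0.13 without control tumor 3, and that of Cry2 was 0.03 without Sora-treated tumor 3.

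The REV-ERB genes encode repressors that act on the same elements. Nr1d1 had 22.5, 21.9, and 21.9 CPM in control tumors and 28.8, 25.2, and 34.2 CPM in Sora-treated tumors, so that each Sora-treated tumor lay above each control tumor. The means were 22.1 ± 0.352 and 29.4 ± 4.49 CPM, a fold of 1.33 (log2 fold change 0.41 ± 0.11; 95% interval 0.17 to 0.66; adjusted p = 0.0703 in edgeR). Nr1d1 passed in DESeq2 (adjusted p = 0.0217), where 7.71% of genes did, without the filter on low counts (adjusted p = 0.0242), where 4.54% did, and without Sora-treated tumor 3 (adjusted p = 0.0164), where 7.03% did. Without Sora-treated tumor 4, the highest, its log2 fold change was 0.29 (adjusted p = 0.267). Over 16 alternatives, the adjusted p ran from 0.0164 to 0.312. Nr1d2 had 40.0, 36.7, and 35.2 CPM in control tumors and 36.1, 32.9, and 35.9 CPM in Sora-treated tumors. Its groups overlapped, with a log2 fold change of -0.09 ± 0.08 (95% interval -0.28 to 0.09; adjusted p = 0.641). The difference between the changes of the 2 genes was not tested.

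The 3' ends of Nr1d1 and Thra, which encodes a thyroid hormone receptor on the opposite strand, share 263 exonic bases in GENCODE M21. The sources used here do not state whether reads were counted by strand, so reads of this stretch cannot be assigned. Thra was at 55.5 ± 0.876 and 51.7 ± 8.80 CPM (log2 fold change -0.10; adjusted p = 0.699) and overlapped between the groups. In the same way, Dbp shares 539 exonic bases with Sphk2, a lipid kinase gene, which was at 22.8 ± 1.84 and 24.0 ± 1.70 CPM (log2 fold change 0.07; adjusted p = 0.772). These neighbors were named after their values were seen. Cry2 (295 bases) and Tef (193 bases) also share exonic bases with a gene on the opposite strand.

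Of the PAR bZIP genes, Dbp was lower in each Sora-treated tumor than in each control tumor and Tef overlapped. Dbp had 3.58, 2.95, and 2.41 CPM in control tumors (115, 96, and 88 reads) and 1.66, 2.35, and 1.39 CPM in Sora-treated tumors (52, 79, and 46 reads). Control tumor 4 and Sora-treated tumor 3 lay next to each other, and the other tumors stood further apart. The fold was 0.606 (log2 fold change -0.72 ± 0.29; 95% interval -1.36 to -0.09), which was the change farthest from 0 among the 10 genes, and it did not pass the test (adjusted p = 0.218 in edgeR). When each tumor was left out in turn, the log2 fold change lay between -0.97 and -0.57. On log2(FPKM + 1) of all genes, which compresses low levels, it was -0.34. Tef had 20.4, 14.3, and 14.5 CPM in control tumors and 16.1, 15.9, and 14.0 CPM in Sora-treated tumors (log2 fold change -0.10 ± 0.15; 95% interval -0.42 to 0.22; adjusted p = 0.793). Hlf, the third PAR bZIP gene, was under 1 CPM in every tumor (log2 fold change -0.74; adjusted p = 0.511). Nfil3, whose protein E4BP4 represses through the same D-boxes, was at 21.9 ± 4.93 and 25.1 ± 0.956 CPM (log2 fold change 0.20; adjusted p = 0.532), with a log2 fold change of 0.04 without control tumor 4 and 0.36 without control tumor 3.

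**Figure D2:**
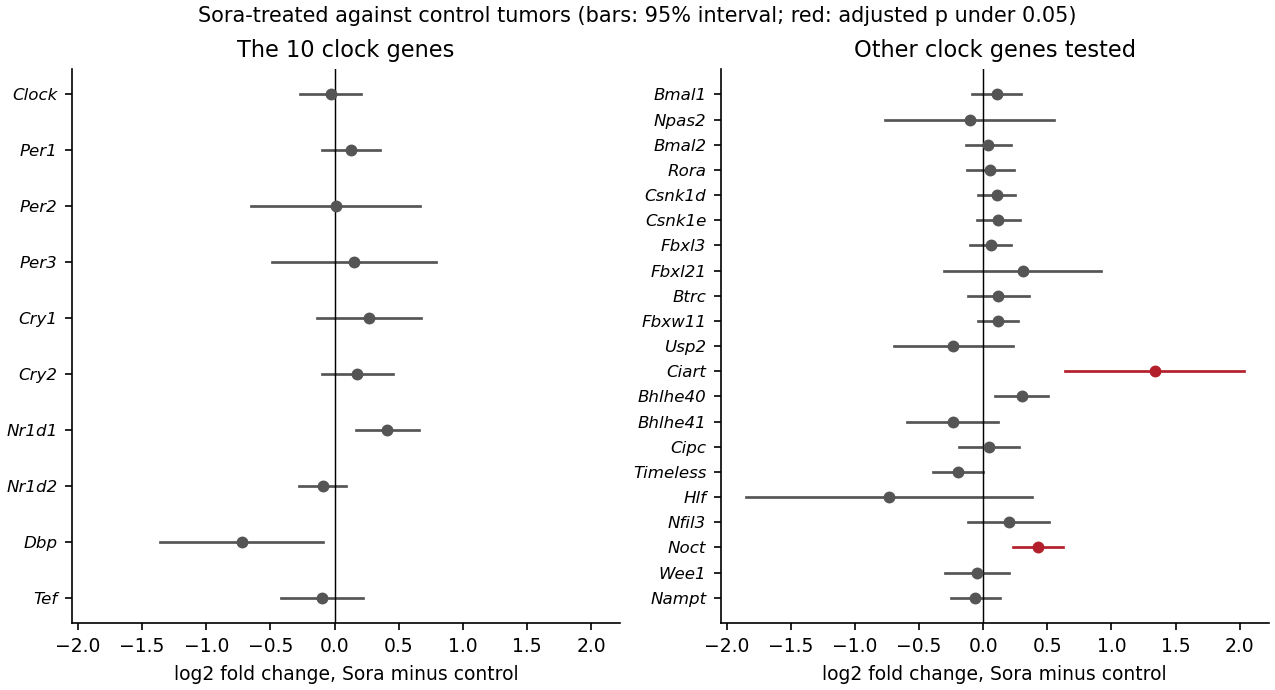
Log2 fold change (Sora-treated minus control, x axis) of the 10 clock genes (left) and of 21 other clock genes tested (right), with bars for the 95% interval and red for an adjusted p under 0.05 in edgeR. The intervals of 8 of the 10 genes hold 0, the exceptions being Nr1d1 and Dbp, and Ciart and Noct are red on the right.

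Among 22 other clock genes listed from general knowledge, 21 were tested (Rorb did not pass the filter), 2 were up-regulated, and none was down-regulated, beside 3.29% of all genes called in either direction. Of the 21 changes, 14 were above 0 and 7 below, with a median of 0.06, and the groups did not overlap for 7, beside 22.2% of all genes. Ciart, which encodes CHRONO, a repressor of CLOCK and BMAL1, had 1.40, 1.07, and 0.877 CPM in control tumors (45, 35, and 32 reads) and 2.97, 2.05, and 3.44 CPM in Sora-treated tumors (93, 69, and 114 reads). Every Sora-treated tumor lay above every control tumor, at a fold of 2.53 (log2 fold change 1.34 ± 0.32; 95% interval 0.64 to 2.03; adjusted p = 0.0462). Noct, a clock output gene that encodes the phosphatase Nocturnin, had 18.0, 18.3, and 18.4 CPM in control tumors and 24.8, 23.0, and 25.7 CPM in Sora-treated tumors. Its groups were tight and apart, at a fold of 1.35 (log2 fold change 0.43 ± 0.09; adjusted p = 0.0293). Both genes passed without Sora-treated tumor 3 (adjusted p = 0.0239 for Ciart and 0.0157 for Noct), and neither passed when any other tumor was left out. The adjusted p without 1 of the other tumors ran from 0.0693 to 0.209 for Ciart and from 0.0691 to 0.136 for Noct. Ciart was also lost in limma voom (adjusted p = 0.0503) and with total counts in place of TMM (adjusted p = 0.0505), and Noct on log2(FPKM + 0.1) (adjusted p = 0.0702). On log2(FPKM + 1) of all genes, where no gene passed, the adjusted p was 0.197 for Ciart and 0.146 for Noct. The log2 fold change on that scale, which compresses low levels, was 0.58 for Ciart and 0.36 for Noct.

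The remaining 19 other clock genes tested did not pass in edgeR. Bhlhe40, which encodes the E-box repressor DEC1, had 390, 449, and 411 CPM in control tumors and 459, 518, and 561 CPM in Sora-treated tumors, groups that did not overlap (log2 fold change 0.30; adjusted p = 0.113). It passed in DESeq2 (adjusted p = 0.0215) and in none of the other alternatives at an adjusted p. Its paralog Bhlhe41 was at 7.14 ± 0.527 and 6.06 ± 0.727 CPM (log2 fold change -0.24; adjusted p = 0.504). Rora, whose protein activates through the elements that the REV-ERBs occupy, overlapped between the groups, with a log2 fold change of 0.06 (adjusted p = 0.793). The kinases that mark PER proteins for degradation had log2 fold changes of 0.10 for Csnk1d (adjusted p = 0.475) and 0.12 for Csnk1e (adjusted p = 0.47). Csnk1d and Fbxw11 (0.11; adjusted p = 0.46) were higher in each Sora-treated tumor than in each control tumor. Usp2 (-0.23; adjusted p = 0.637) and Timeless (-0.20; adjusted p = 0.277) were lower in each. Fbxw11, Usp2, and Timeless were named after their values were seen.

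**Figure D3:**
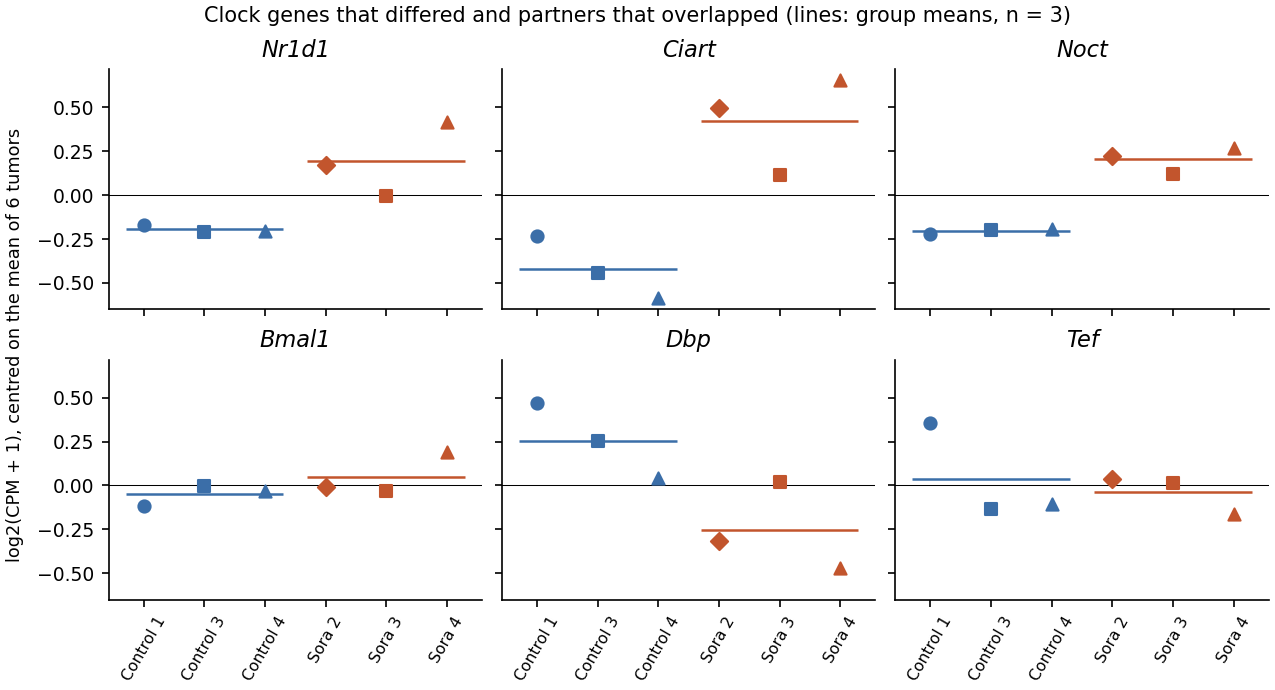
Log2(CPM + 1) of Nr1d1, Ciart, Noct, Bmal1, Dbp, and Tef in each tumor, centered on the gene's mean over the 6 tumors, with lines for group means (n = 3). Nr1d1, Ciart, and Noct are below their mean in all control tumors and above it in Sora-treated tumors, with Nr1d1 at its mean in Sora-treated tumor 3, and Dbp is above its mean in all control tumors and below it in Sora-treated tumors, except Sora-treated tumor 3, which is just above. The tumors of Bmal1 and Tef overlap.

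Levels of different genes were compared in FPKM, which are per gene length. In control tumors the mean FPKM fell in the order Nr1d1 (8.02), Nr1d2 (7.72), Clock (4.34), Cry2 (3.51), Per1 (2.44), Tef (2.36), Cry1 (1.59), Dbp (1.10), Per3 (0.318), and Per2 (0.274). Neighbors whose tumors overlapped were Nr1d1 and Nr1d2, Clock and Cry2, Per1 and Tef, Cry1 and Dbp, and Per3 and Per2. The order of the 10 means was the same in Sora-treated tumors, from 10.6 FPKM for Nr1d1 and 7.18 FPKM for Nr1d2 to 0.658 FPKM for Dbp, 0.348 FPKM for Per3, and 0.272 FPKM for Per2. There, overlap between neighbors was found for Clock and Cry2 and for Tef and Cry1. The Nr1d1 and Nr1d2 ranges, which overlapped in control tumors, were apart in Sora-treated tumors, as were those of Cry1 and Dbp. The same held for Per1 and Tef and for Per3 and Per2, whereas Tef and Cry1 were apart in control tumors and overlapped in Sora-treated tumors. FPKM depend on the gene length the authors used, which was 19267 bases for Bmal1 and 2765 bases for Nr1d1, so an order between genes is also one of gene models.

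The ratio of 2 clock genes within a tumor does not depend on the scaling of the libraries, and 2 ratios were computed, each of genes that peak at opposite times of day in liver. The log2 ratio of Nr1d1 to Bmal1 in FPKM was 2.18, 2.02, and 2.05 in control tumors and 2.42, 2.26, and 2.47 in Sora-treated tumors. The mean was 2.08 ± 0.08 against 2.38 ± 0.11 (SD, n = 3), a ratio 1.23-fold higher in Sora-treated tumors, with no overlap of the groups (two-sided exact permutation test, p = 0.1). The log2 ratio of Dbp to Nfil3 was -1.94, -2.47, and -2.09 in control tumors and -3.22, -2.65, and -3.52 in Sora-treated tumors. The mean was -2.16 ± 0.27 against -3.13 ± 0.44, a ratio 0.512 times as high in Sora-treated tumors, also with no overlap (exact permutation test, p = 0.1). With 3 tumors against 3 there are 20 labelings and 0.1 is the smallest p that this test can give, so neither ratio could pass 0.05, and adjustment over the 2 ratios leaves both at 0.1. The ratios are not independent of the levels of Nr1d1 and Dbp given above.

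**Figure D4:**
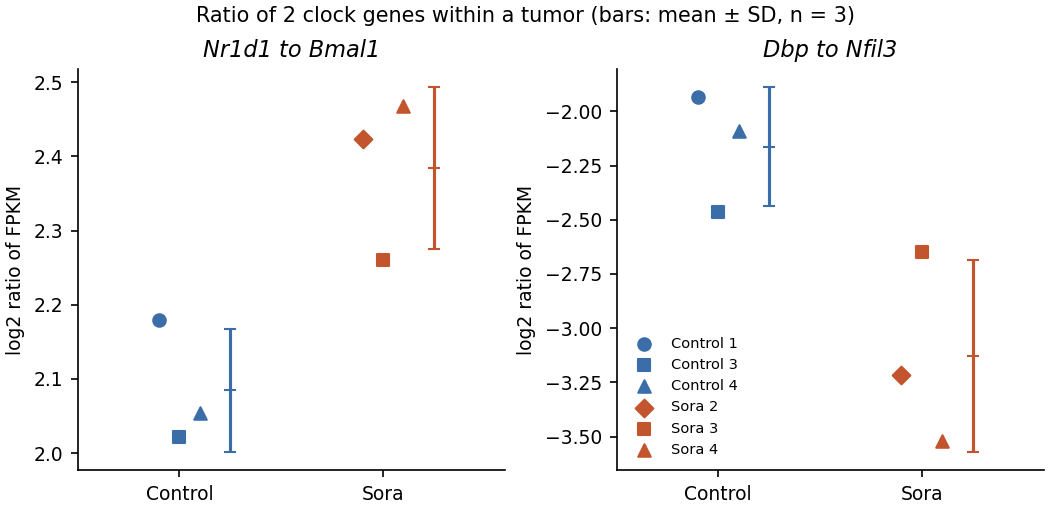
Log2 ratio of Nr1d1 to Bmal1 (left) and of Dbp to Nfil3 (right) in FPKM, with 1 point per tumor and bars for the mean ± SD (n = 3). The Sora-treated tumors lie above the control tumors on the left and below them on the right.

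The median spread among tumors of 1 group was higher over the clock genes than over all genes, and the gap was wider in control tumors. The SD of log2(CPM + 1) over the 3 tumors had a median of 0.197 over the 10 genes in control tumors and 0.141 in Sora-treated tumors, beside 0.121 and 0.120 over all genes tested, and 6 of the 10 were above the all-gene median in each group. The ratio of the highest to the lowest tumor had a median of 1.40 in control tumors and 1.26 in Sora-treated tumors over the 10 genes, beside 1.204 and 1.205 over all genes. In control tumors this ratio ran from 1.03 for Nr1d1 to 1.80 for Per3, and in Sora-treated tumors from 1.10 for Nr1d2 to 1.69 for Dbp. Nr1d1 and Cry2 varied least in control tumors and were among the 3 with the highest SD in Sora-treated tumors. These are descriptions of 3 tumors a group, with no test, and part of the spread of Dbp, Per2, and Per3 is counting error (11.2%, 13.5%, and 11.6% of the level in a tumor). The 1 added to CPM before the log also compresses the SD of genes at low levels, such as Per2, Per3, and Dbp. On log2(FPKM + 1), where low levels are compressed too, the medians of the 10 genes were 0.115 and 0.0964, beside 0.0945 and 0.0903 over all genes.

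**Figure D5:**
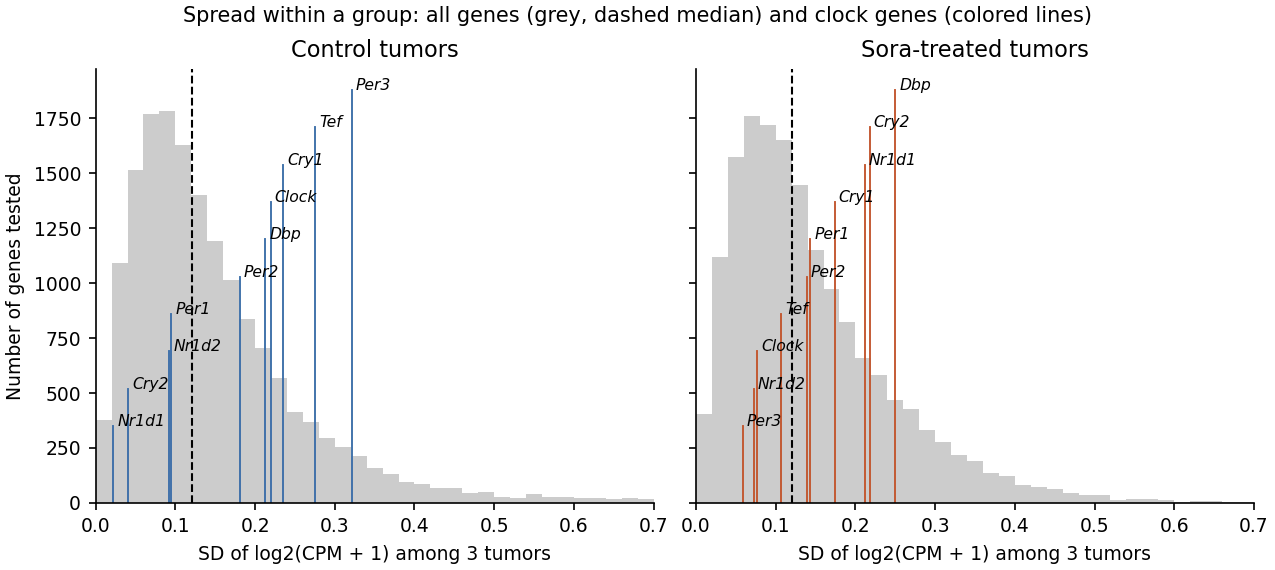
SD of log2(CPM + 1) among the 3 control (left) and the 3 Sora-treated tumors (right), as a histogram over all genes tested (gray, dashed line at the median) with colored lines for the 10 clock genes. In each group 6 of the 10 lines lie to the right of the dashed line, and the heights of the lines carry no value.

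The control tumors differed in how often they were the highest. Control tumor 1 was the highest control tumor for 8 of the 10 genes, all but Per1 and Cry2, and the lowest for 0, whereas control tumor 3 was the lowest for 6 and control tumor 4 for 4. Some gaps were small, as for Nr1d1 (22.5 against 21.9 and 21.9 CPM). Sora-treated tumors 2, 3, and 4 were the highest of their group for 3, 3, and 4 genes and the lowest for 1, 5, and 4. The same counts were not made over all genes. Summed over the 10 genes, the level was 185, 155, and 164 CPM in control tumors 1, 3, and 4 and 179, 169, and 178 CPM in Sora-treated tumors 2, 3, and 4. Control tumor 1 also had the highest sum of 8 keratinocyte and skin markers, 1122 CPM against 333.8 and 417.1 CPM in the other control tumors and 991.8, 752.1, and 707.4 CPM in Sora-treated tumors. The part of skin in the levels of the clock genes was not tested. Without control tumor 1 the log2 fold change was 0.08 for Clock and 0.09 for Tef, on the other side of 0.

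By the root mean square (RMS) difference of centered log2(CPM + 1) over the 6 tumors, the genes most like Dbp among 14111 genes with a mean of at least 1 CPM were Ccr2 (0.0509), Prss36 (0.0624), Gvin3 (0.0648), Ctsw (0.0753), and Abcg1 (0.0766). Ccr2 encodes a chemokine receptor of monocytes, Ctsw a protease of cytotoxic lymphocytes, and Abcg1 a cholesterol transporter. Their log2 fold changes were -0.47 for Ccr2, -0.54 for Prss36, -0.48 for Gvin3, -0.49 for Ctsw, and -0.47 for Abcg1. All were nearer to no change than that of Dbp (-0.72). The 1 added before the log compresses the change of genes of few CPM, such as Dbp, more than that of abundant genes. A gene without any variation would be at an RMS of 0.318 from Dbp. Among the clock genes, Tef (0.259, place 2371), Per2 (0.277, place 3113), and Nr1d2 (0.289, place 3719) came nearest, not far below the RMS of a flat gene, and Nr1d1 (0.533, place 13219) and Cry1 (0.476, place 12656) were farthest from it.

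The summed levels of the T-cell, neutrophil, fibroblast, macrophage, and red blood cell markers did not overlap between the groups, and those of the other cells did. All 7 T-cell markers tested of 8 listed had log2 fold changes below 0 (median -0.34), of which Cd8b1 was down-regulated, and their sum was 236.1 to 262.4 CPM in control tumors and 187 to 200.2 CPM in Sora-treated tumors. All 5 neutrophil markers tested were above 0 (median 0.65), of which S100a9 was up-regulated, and their sum was 66.7 to 77.7 CPM against 98.9 to 153.2 CPM, with Ly6g under 1 CPM. Of 7 fibroblast markers 6 were below 0, with sums of 7591 to 7861 CPM against 5373 to 6764 CPM. Most of that sum came from the collagen genes Col1a1 (log2 fold change -0.42), Col1a2 (-0.47), and Col3a1 (-0.42), whose groups did not overlap. Pdgfra (-0.03), Pdgfrb (-0.09), Dcn (0.03), and Lum (-0.22) overlapped between the groups. Of 8 macrophage markers 7 were below 0, with sums of 1742 to 2103 CPM against 1480 to 1718 CPM. All 5 red blood cell markers were below 0 and Hba-a1 was down-regulated, with sums of 46.9 to 128.8 CPM against 32.8 to 44.1 CPM. The sums of the other lists overlapped, and none of their markers outside the hepatoma list passed. All 6 adipocyte markers tested were above 0 (median 0.65; Lep was under 1 CPM), with sums of 63.5 to 92.8 against 76.8 to 120.4 CPM. All 10 skeletal muscle markers (median 0.19; 194.4 to 275.5 against 222.8 to 316.6 CPM) and all 8 skin markers (median 0.33) were above 0, and of 7 endothelial markers 3 were above 0 and 4 below (median -0.21; 224.2 to 262.4 against 177.5 to 244.6 CPM). Of the hepatoma markers, Alb, Afp, and Trf were abundant in every tumor, whereas Serpina1a and Ahsg were under 1 CPM, and of 8 hepatoma markers tested Alb and Ttr were down-regulated and Apoa1 and Hnf4a up-regulated, with sums of 4907 to 6473 against 4886 to 5152 CPM. The marker calls of this paragraph stand beside 3.29% of all genes called in either direction. Of these marker calls, that of Ttr held without each tumor in turn. S100a9 and Apoa1 did not pass in DESeq2 (adjusted p = 0.0532 and 0.0627) or in limma voom (adjusted p = 0.0733 and 0.0806), nor without any 1 tumor other than Sora-treated tumor 3. The log2 fold change of S100a9 was 1.21, and 0.79 without Sora-treated tumor 2, and that of Apoa1 was 1.03, and 0.65 without Sora-treated tumor 4. Hba-a1 did not pass in limma voom (adjusted p = 0.0614) or without any 1 tumor other than control tumor 3. Alb did not pass without control tumor 3 or 4 or Sora-treated tumor 2 or 4, Cd8b1 without control tumor 1 or Sora-treated tumor 2 or 4, and Hnf4a without control tumor 4 or Sora-treated tumor 4. No marker was at 0 in any tumor, and the part of cell composition in the levels of Nr1d1, Dbp, Ciart, and Noct was not tested.

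Glucocorticoids and temperature are signals that set clocks in peripheral tissues. Of 10 glucocorticoid-responsive genes, which include Per1, 3 were up-regulated and none down-regulated, beside 3.29% of all genes called in either direction, and 7 log2 fold changes were above 0 and 3 below, with a median of 0.11. The 3 were Mt2, a metallothionein (log2 fold change 0.81; adjusted p = 0.0123), Dusp1, a MAPK phosphatase (0.74; adjusted p = 0.013), and Sgk1, a kinase (0.41; adjusted p = 0.0331), and each of these responds to other stimuli too. Mt2 and Dusp1 did not pass without Sora-treated tumor 4 (adjusted p = 0.0699 and 0.0848), and Sgk1 did not pass without any 1 tumor other than Sora-treated tumor 3 (adjusted p = 0.0721 to 0.154). Of the genes that did not pass, Tsc22d3, which encodes the glucocorticoid-induced leucine zipper GILZ (log2 fold change -0.23; adjusted p = 0.195), and Sesn1, a sestrin gene (-0.39; adjusted p = 0.116), were lower in each Sora-treated tumor than in each control tumor, and Fkbp5, which encodes a chaperone of the receptor, overlapped (0.08; adjusted p = 0.751). Cdkn1a also overlapped (0.23; adjusted p = 0.183). These uncalled genes were named after their values were seen. The groups did not overlap for 5 of the 10 genes, the 3 up-regulated ones, Tsc22d3, and Sesn1, beside 22.2% of all genes. The summed level of the 10 was 704.4 to 736.9 CPM in control tumors and 836.4 to 949.3 CPM in Sora-treated tumors. None of 8 temperature-responsive genes passed, of which 6 were above 0 and 2 below (median 0.08), and the most abundant of these, the chaperones Hspa8 and Hsp90aa1, had log2 fold changes of -0.003 (adjusted p = 0.993) and -0.12 (adjusted p = 0.646). These were the 2 below 0. Dnajb1, named after its values were seen, was higher in each Sora-treated tumor than in each control tumor (0.28; adjusted p = 0.127). It was the 1 gene of the 8 without overlap, beside 22.2% of all genes.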

How the data were processed

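RNA-seq of 3 control and 3 Sora-treated tumors was analyzed, with 1 library per tumor. The authors deposited raw counts of reads per gene and FPKM (counts per gene length and total count) for the same 26167 genes. For the alignment the study's methods name Bowtie2 and GRCm38, whereas the submitters' processing notes list fastp, HISAT2, HTSeq, R 3.2.0, DESeq2, and GRCm39, so no gene coordinates are given and the sequences, with the coordinates of their windows, are those of RefSeq on GRCm38.p6, matched by symbol. The annotation and the use of strand are not given in the sources used here.

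Of the 6 tumors, 5 are in the count table at hand. For Sora-treated tumor 4, counts were recovered from FPKM with gene lengths derived from the other 5 (342 genes, with 512 reads, had no length and were left out), where 100% of the values came out whole within 0.001. As a check, each of the 5 known tumors was left out of the lengths and recovered in turn, and every recovered count equaled the deposited one. Total counts were 31073830 to 36205814 reads per tumor, so counting error limits genes of few CPM.

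The 16513 genes that reached 10 counts in 3 or more tumors entered the quasi-likelihood test of edgeR 4.0.16 (glmQLFit, then glmQLFTest, with TMM factors, in R 4.3.3), two-sided, with Benjamini-Hochberg adjustment over all of them. Ratios were compared by an exact permutation test. Scripts were tested on simulated data. The members and lists were chosen with earlier results of these data known. Named were the 10 members, 10 other clock genes set by name (1 more listed gene is not reported here), each listed gene with an adjusted p under 0.05, in the temperature list, where none passed, the 2 highest in CPM, and the 5 genes most like Dbp. Trac was not found in the tables. Alternatives were DESeq2 1.42.0, limma 3.58.1 (voom, log2(FPKM + 1), and log2(FPKM + 0.1), the FPKM fits on genes reaching 1 FPKM in 3 or more tumors and, for the pseudocount of 1, also on all genes), other scalings and filters, a replicate block, leaving out each tumor, and unadjusted p.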

Additional observations from a re-analysis of the deposited data

How the results depend on the processing

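The number of the 10 clock genes that passed was 0 in edgeR, 1 in DESeq2 and without the filter on low counts, 2 at an unadjusted p, and 0 to 1 when each tumor was left out. The number of other clock genes that passed was 2 in edgeR, 3 in DESeq2, 1 in limma voom, with total counts, and on log2(FPKM + 1), 0 on log2(FPKM + 0.1) and on log2(FPKM + 1) of all genes, 4 at an unadjusted p, and 0 to 2 when each tumor was left out. Ciart was below the FPKM filter, and the causes of the other differences were not tested. Over all genes the number called was 543 in edgeR, 1194 in DESeq2, 1147 without the filter, 198 on log2(FPKM + 1), 38 on log2(FPKM + 0.1), 0 on log2(FPKM + 1) of all genes, 2844 at an unadjusted p, and 5 (without Sora-treated tumor 4) to 1145 (without Sora-treated tumor 3) when each tumor was left out. Numbers 3 and 4 occur in both groups, but nothing says that they pair mice, and same-numbered tumors did not deviate together (r = -0.02 for number 3 and -0.08 for number 4, across 14112 genes). Control tumor 1 and Sora-treated tumor 2 share their numbers with no other tumor. A fit with the number as a block therefore rests on tumors 3 and 4 of each group. In it, 125 genes were called in all and 0 of the other clock genes (adjusted p = 0.271 for Ciart and 0.326 for Noct). Sgk1, Alb, Hnf4a, Cd8b1, S100a9 (log2 fold change 0.7343), Apoa1, and Hba-a1 also lost their calls. Per2 and Per3 moved to 0.2626 and 0.4604, and Bhlhe41 to -0.1179. The log2 fold changes of Clock (0.0397) and Tef (0.0486) turned sign, as they did without control tumor 1. Other changes of sign, all near 0, were Per2 with total counts (-0.0048) and on log2(FPKM + 1) of all genes (-0.0011) and Hspa8 with at least 10 counts in every tumor (0.0003). When each tumor was left out, the log2 fold change ran from -0.14 to 0.0795 for Clock, -0.1289 to 0.1889 for Per2, -0.0004 to 0.4667 for Per3, -0.1874 to 0.0902 for Tef, -0.2942 to 0.0932 for Npas2, and -0.0611 to 0.0622 for Hspa8. Genes that kept their sign but moved by over 1.5 times ran from 0.0731 (without control tumor 3) to 0.2071 (without Sora-treated tumor 3) for Per1, from -0.1328 to -0.0383 (without control tumor 1) for Nr1d2, from 0.013 (without Sora-treated tumor 3) to 0.1157 (without Sora-treated tumor 4) for Rora, from -1.028 to -0.405 (without control tumor 3) for Hlf, from 0.0669 (without control tumor 1) to 0.1637 for Csnk1e, and from -0.213 (without Sora-treated tumor 4) to -0.0172 (without control tumor 1) for Hsp90aa1. Over the 33 single genes refitted (the 10 clock genes, 11 other clock genes, Hspa8, Hsp90aa1, and the glucocorticoid-responsive and marker genes called) and their alternatives, 437 values kept direction and side of the threshold, 84 lost a call, 7 gained one, and 17 changed sign. Only genes called in edgeR could lose a call, and the 7 include gains at an unadjusted p. At an adjusted p, the call held in 15 of 16 alternatives for Ttr and in 5 of 16 for S100a9 and Apoa1. Both ratios kept their direction in every alternative run, from 0.26 to 0.36 for Nr1d1 to Bmal1 and from -1.21 to -0.77 for Dbp to Nfil3.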
